A study of Macaca mulatta with 12 samples.

Results

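miR-10 and miR-196 are microRNAs (miRNAs), short RNAs that guide silencing proteins to messenger RNAs, and their pre-miRNAs lie inside the HOX gene clusters. The members were the pre-miRNAs of rhesus macaque (Macaca mulatta) named mml-mir-10a, mml-mir-10b, mml-mir-196a-1, mml-mir-196a-2 and mml-mir-196b, which made up 5 of the 832 pre-miRNAs read from the study's table of pre-miRNAs. That table was held in part, so counts and ranks over all miRNAs cover those 832. The 5 hairpins gave 8 distinct mature sequences of 1219, and 6 of these 8 were among the 371 that passed a filter on abundance (a mean of at least 5 reads per 10000000, RPTM, over the profiles, and an SD of at least 1). The 3p sequences of mml-mir-196a-2 and mml-mir-196b did not pass.

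Small RNA was sequenced in 12 profiles of 8 tissues from untreated, wild-type animals aged 36 months. There were 2 profiles of kidney, of muscle, of large intestine and of small intestine, and 1 of lung, of liver, of occipital lobe (the back of the cerebral cortex) and of spinal cord. The study's methods give 2 animals, but the labels do not tie a profile to an animal, so p-values measure the spread between these profiles, which may in part be technical. The labels state neither the level of the spinal cord, nor the site of the muscle, nor which part of the small or large intestine was sampled. These were whole tissues, in which fewer cells of a type and less of an RNA per cell cannot be told apart. The profiles held 22118095 to 25579064 reads, so 1 read was worth 0.391 to 0.452 RPTM. The marker miRNAs of muscle, liver and neural tissue followed the labels, and none were listed for kidney, lung or large intestine. The 4 skeletal muscle markers summed to 134532 and 151835 RPTM in muscle and to at most 933 RPTM elsewhere, mml-miR-122a-5p reached 7320 RPTM in liver and at most 4.37 RPTM elsewhere, and the 2 neuronal markers summed to 394379 RPTM (occipital lobe) and 264597 RPTM (spinal cord), with 992 RPTM as the highest sum elsewhere.

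HOX genes encode transcription factors that give cells their position along the axis from head to tail, and in the embryo they are active from the hindbrain backwards, the genes at one end of each cluster nearer the head and those at the other end nearer the tail. The miRNAs within a cluster are transcribed with or beside the HOX genes, and both miR-10 and miR-196 are known to target HOX messenger RNAs. In the RefSeq gene table of assembly T2T-MMU8v2.0, used for neighbours and not for positions, mml-mir-10a lay within HOXB3 on chromosome 16, between HOXB5 and HOXB4. There mml-mir-10b lay within HOXD4 on chromosome 12, between HOXD8 and HOXD3. The miR-196 genes lay nearer the other end of the clusters: mml-mir-196a-1 beside HOXB9 on chromosome 16, mml-mir-196a-2 between HOXC10 and HOXC9 on chromosome 11, and mml-mir-196b between HOXA10 and HOXA9 on chromosome 3. The annotated gene LOC114673140 also spanned mml-mir-196a-1, and ATP5MC2 spanned mml-mir-196a-2.

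The 8 mature sequences are shown with the seed (bases 2 to 8, which pair first with a target) in capitals, because the miRNAs of each pair share it and differ elsewhere by little.
mml-miR-10a-5p: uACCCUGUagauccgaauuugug
mml-miR-10b-5p: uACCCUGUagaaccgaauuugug
mml-miR-196a-5p: uAGGUAGUuucauguuguugg
mml-miR-196b-5p: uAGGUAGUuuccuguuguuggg
mml-miR-10a-3p: aAAUUCGUaucuaggggaaua
mml-miR-10b-3p: aGAUUCGAuucuaggggaaua
mml-miR-196a-2-3p: gGCAACAAgaaacugccugag
mml-miR-196b-3p: cGACAGCAcgacacugccuuca
The 5p sequences of miR-10a and miR-10b shared the seed ACCCUGU and differed at 1 base, U12A, counted from the 5′ end of miR-10a. Those of miR-196a and miR-196b shared the seed AGGUAGU and differed, over the 21 bases common to both, at 1 base, A12C. A read with an exact match that covered base 12 could therefore be given to 1 miRNA of each pair. The 3p sequences of miR-10a and miR-10b differed at 3 bases, and no seed was shared between any of the 4 3p sequences. The 5p sequences of mml-mir-196a-1 and mml-mir-196a-2 were identical and were counted together as miR-196a-5p.

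miR-10a-5p, from the HOXB cluster, was abundant in every tissue but the occipital lobe. Its level was 474119 RPTM in lung, 480356 and 310602 RPTM in kidney, and 371149 and 323965 RPTM in large intestine. The small intestine profiles held 143916 and 270069 RPTM, the muscle profiles 113791 and 156006 RPTM, and liver 121447 RPTM. Spinal cord held 70444 RPTM and occipital lobe 1146 RPTM. Ordered by mean, the tissues ran lung, kidney, large intestine, small intestine, muscle, liver, spinal cord and occipital lobe. Only the last step, of 5.94 on the log2 scale, was larger than the largest difference between the 2 profiles of 1 tissue (0.91, in small intestine), and no other pair of neighbours differed beyond that spread.

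miR-10b-5p, from the HOXD cluster, was highest in kidney and, like miR-10a-5p, lowest in occipital lobe. Kidney held 3705808 and 2821416 RPTM, which was 54.2% and 51.3% of all reads assigned to a mature miRNA there. Muscle held 1744757 and 1408966 RPTM, large intestine 466092 and 773620 RPTM, and small intestine 136781 and 236448 RPTM. Every profile of kidney lay above every profile of muscle, muscle above large intestine, and large intestine above small intestine. Spinal cord held 379494 RPTM, lung 34558 RPTM, liver 22211 RPTM and occipital lobe 8946 RPTM. In the order kidney, muscle, large intestine, spinal cord, small intestine, lung, liver, occipital lobe, the steps from large intestine to spinal cord (0.71) and from lung to liver (0.64) did not exceed the largest difference between profiles of 1 tissue (0.79 on the log2 scale), and the other steps did.

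miR-196a-5p was readily detected in muscle, kidney, large intestine and 1 small intestine profile, and near the limit of counting elsewhere. Muscle held 2584 and 1758 RPTM, kidney 2213 and 1622 RPTM, and large intestine 549 and 326 RPTM. The small intestine profiles held 21.3 RPTM (52 reads) and 654 RPTM (1550 reads), so they did not lie together. Lung gave 15 reads (6.56 RPTM), spinal cord 9 (3.76 RPTM), occipital lobe 5 (2.17 RPTM) and liver 2 (0.807 RPTM).

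miR-196b-5p, from the HOXA cluster, had its highest levels in large intestine, at 1265 and 1117 RPTM. It held 968 and 609 RPTM in muscle and 728 and 687 RPTM in kidney, and all 4 of these values lay below both of large intestine. The small intestine profiles held 2.46 RPTM (6 reads) and 53.6 RPTM (127 reads). Lung gave 39 reads (17.1 RPTM), occipital lobe 8 (3.48 RPTM), spinal cord 6 (2.51 RPTM) and liver 5 (2.02 RPTM).

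The small intestine pair stood apart for both miR-196 miRNAs. miR-196a-5p differed 29.4-fold and miR-196b-5p 15.8-fold between the 2 small intestine profiles (each with 1 RPTM added), and none of the other miRNAs that passed the filter differed as much, the median being 1.36-fold. In the other tissues with 2 profiles, miR-196a-5p differed 1.36-fold to 1.68-fold and miR-196b-5p 1.06-fold to 1.59-fold. The pair did not stand apart for miR-10a-5p (1.88-fold) or miR-10b-5p (1.73-fold), which 61 and 88 non-member miRNAs equalled or exceeded. The 3 small intestine markers, miR-215, miR-194 and miR-802, summed to 190306 and 199629 RPTM in the first and second profile. That sum was carried by miR-215 (166876 and 183652 RPTM). miR-194 (23053 and 15874 RPTM) and miR-802 (376 and 103 RPTM) were lower in the second profile. The 4 epithelial markers (miR-200a, miR-200c, miR-141 and miR-429) summed to 11418 and 6199 RPTM, with none at 0. The 2 smooth muscle markers, miR-143 and miR-145, summed to 2964660 and 3169571 RPTM. The profile with the higher miR-196 was the one with the lower epithelial sum. The labels do not say which part of the small intestine each profile came from. Neither the sampled part nor tissue makeup was tested as a source of this difference. Because this pair set the spread for miR-196 (4.88 and 3.98 on the log2 scale), only the step from small intestine to lung in miR-196a-5p (5.48) and the step from kidney to small intestine in miR-196b-5p (4.61) exceeded it in the order of tissues.

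**Figure D1:**
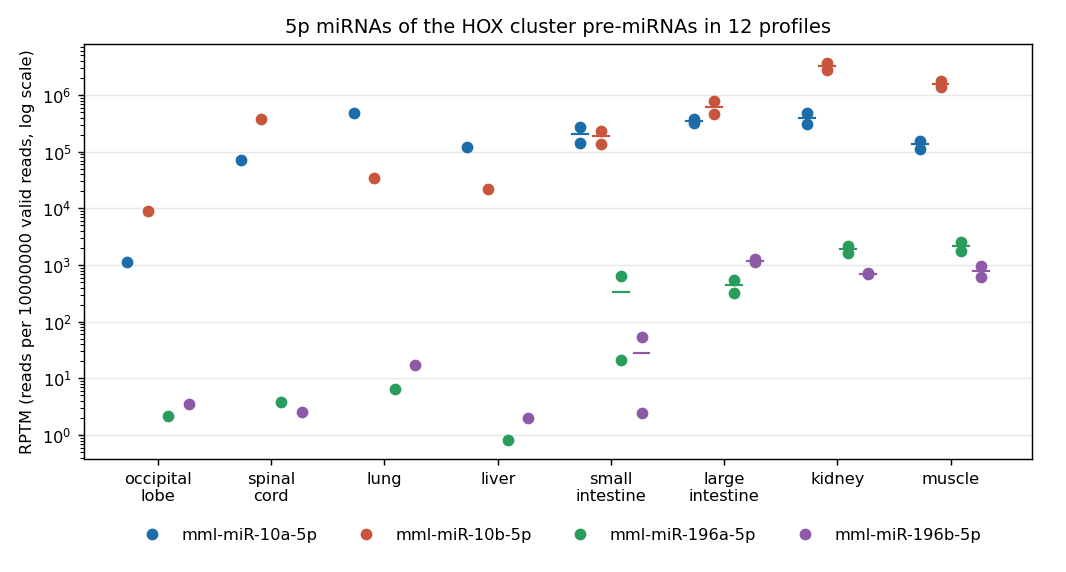
Levels of the 4 5p miRNAs in each of the 12 profiles, in RPTM on a log axis, with a short bar at the mean where a tissue has 2 profiles. miR-10b-5p spans 8946 to 3705808 RPTM, and miR-196 falls below 20 RPTM in occipital lobe, spinal cord, lung and liver, with the small intestine profiles wide apart.

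The balance within each seed pair ranged widely over the tissues, although the profiles of kidney and muscle overlapped for both pairs and the 2 large intestine profiles lay apart for miR-10. miR-10a-5p made up 93.2% of the reads of both miR-10 miRNAs in lung and 84.5% in liver. Its share was 51.3% and 53.3% in small intestine, and 44.3% and 29.5% in large intestine. It was 11.5% and 9.92% in kidney, 6.12% and 9.97% in muscle, 15.7% in spinal cord and 11.4% in occipital lobe. The HOXB copy was thus the main source of the shared seed in lung and liver and the HOXD copy in kidney, muscle and both neural tissues. For miR-196, miR-196a-5p made up 89.7% and 92.4% of the reads of both in small intestine, 75.2% and 70.2% in kidney and 72.7% and 74.3% in muscle. In large intestine it made up 30.3% and 22.6%, the only tissue with 2 profiles in which miR-196b-5p was the more abundant. Lung, spinal cord, occipital lobe and liver held 7 to 54 reads of the pair, and there the 95% Wilson intervals of the share spanned from 8.22% to 80.2%. These intervals cover counting error only.

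**Figure D2:**
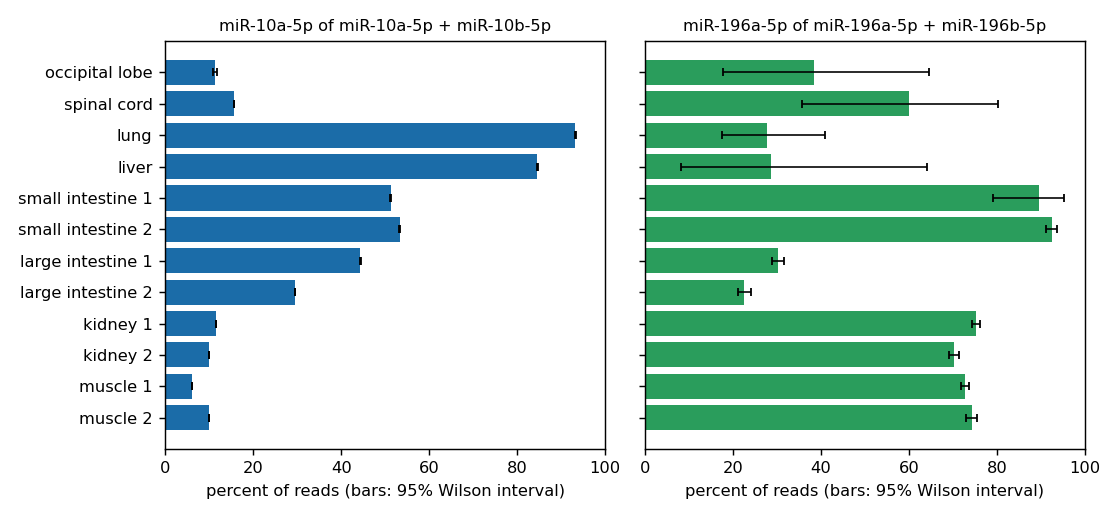
Share of miR-10a-5p among the reads of both miR-10 5p miRNAs (left) and of miR-196a-5p among both miR-196 5p miRNAs (right), in percent for each profile, with 95% Wilson intervals as error bars. miR-10a-5p makes up 93.2% in lung and 6.12% in the first muscle profile, and miR-196a-5p falls to 22.6% in the second large intestine profile.

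The design allows tests between the 4 tissues with 2 profiles. The counts of the 371 miRNAs were compared with edgeR's quasi-likelihood test with Benjamini-Hochberg adjustment over all 371, and a miRNA was called at an adjusted p under 0.05. Log2 differences from this fit are relative to TMM factors, which scale each profile by the bulk of its miRNAs, so they differ from ratios of RPTM. With library sizes taken from valid reads, the median log2 difference of all miRNAs in the comparisons with muscle moved upwards by 0.30 to 0.65.

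Between the intestines, miR-10b-5p and miR-196b-5p were higher in large intestine, the more tailward segment. For miR-196b-5p the difference was 5.52 ± 0.93 (log2, SE; adjusted p = 0.00301), and for miR-10b-5p 1.85 ± 0.44 (adjusted p = 0.0388). These were the only 2 miRNAs called higher in large intestine. Thus 2 of the 6 members tested were called, beside 2.70% of all miRNAs tested. Neither call was firm: for miR-196b-5p the adjusted p was 0.0852 without the first and 0.0807 without the second large intestine profile, and for miR-10b-5p it lay between 0.0535 and 0.235 without the first small intestine, the second large intestine, the first muscle or either kidney profile, and was 0.0738 with a filter at a mean of 50 RPTM. miR-10a-5p (0.83 ± 0.38, adjusted p = 0.517) and miR-196a-5p (0.47 ± 0.89, adjusted p = 0.899) were not called, and the difference in miR-196a-5p was -0.46 without the first small intestine profile and 4.49 (adjusted p = 0.00436) without the second.

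Kidney exceeded both intestines in miR-10b. Against small intestine, 3 of the 6 members were called beside 25.3% of all miRNAs, all higher in kidney: miR-10b-5p by 3.87 ± 0.48 (log2, SE; adjusted p = 7.52e-05), miR-10b-3p by 4.08 ± 0.67 (adjusted p = 0.000617) and miR-196b-5p by 4.45 ± 0.89 (adjusted p = 0.00235). Against large intestine, 2 of the 6 were called beside 21.6% of all miRNAs, miR-10b-5p (2.02 ± 0.44, adjusted p = 0.0048) and miR-10b-3p (2.84 ± 0.62, adjusted p = 0.00501), and the second was lost without the first large intestine profile (adjusted p = 0.0613). miR-10a-5p was called in neither comparison, with differences of 0.66 ± 0.38 against small intestine and -0.17 ± 0.37 against large intestine, and the sign of the latter turned with valid reads as library sizes (0.19).

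miR-10a was called lower in muscle than in each of the other 3 tissues, and miR-10b higher in muscle than in small intestine and lower than in kidney. Against large intestine, 2 of the 6 members were called beside 38.5% of all miRNAs: miR-10a-5p fell by 2.06 on the log2 scale (SE 0.39, adjusted p = 0.00112) and miR-10a-3p fell by 2.93 (SE 0.63, adjusted p = 0.00259). With valid reads as library sizes, miR-10b-5p (1.35, adjusted p = 0.0129) and miR-10b-3p (1.88, adjusted p = 0.033) were also called, higher in muscle. Against kidney, 4 of the 6 were called beside 36.9%, all lower in muscle, miR-10a-5p at -1.88 ± 0.39 (adjusted p = 0.00217), miR-10a-3p at -2.55 ± 0.62 (adjusted p = 0.00666), miR-10b-5p at -1.39 ± 0.43 (adjusted p = 0.0237) and miR-10b-3p at -1.67 ± 0.58 (adjusted p = 0.0375). The miR-10b-5p call was lost without the first kidney profile (adjusted p = 0.0622) or either muscle profile (0.0663 and 0.109), the miR-10b-3p call without the same 3 profiles (0.0811 to 0.175) or with valid reads (0.0959), and the miR-10a-3p call without the second muscle profile (0.0525). Over the 6 comparisons, 11 of the 18 member calls were lost (adjusted p from 0.0752 to 0.87) when occipital lobe and spinal cord, between which miR-10 differs, were fitted as 1 neural group.

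Against small intestine, 5 of the 6 members were called in muscle beside 43.4% of all miRNAs. miR-10b-5p was higher in muscle by 2.49 ± 0.45 (log2, SE; adjusted p = 0.000723), miR-10b-3p by 2.41 ± 0.65 (adjusted p = 0.00959) and miR-196b-5p by 4.25 ± 0.88 (adjusted p = 0.00192). miR-10a-5p was called lower, at -1.22 ± 0.38 (adjusted p = 0.0196), but its levels in the 2 tissues overlapped and with valid reads as library sizes the difference was -0.62 with an adjusted p of 0.205. It was also lost without either muscle profile (0.154 and 0.0711) or the second small intestine profile (0.23). miR-10a-3p was lower by a difference of -2.18 ± 0.62 (adjusted p = 0.0129), a call lost without either muscle profile or the second small intestine profile (0.0505 to 0.101) or with valid reads (0.0731), and the miR-10b-3p call was lost without the first small intestine profile (0.0592).

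miR-196a-5p passed the threshold in none of the 6 comparisons, with adjusted p between 0.0868 and 0.934, unadjusted p of 0.0303 for kidney and 0.0398 for muscle against small intestine, and no call by DESeq2 (adjusted p at least 0.174). Its kidney and muscle profiles nevertheless lay above all 4 intestinal profiles. Without the second small intestine profile it was higher in kidney than in small intestine by 6.36. Without either small intestine profile it was called higher in kidney (1.87) and in muscle (1.67) than in large intestine. With all profiles these differences were 1.81 and 1.66, uncalled. The fits without a small intestine profile lack the pair that set the spread of miR-196a-5p. miR-196b-5p did not differ detectably between kidney, muscle and large intestine (adjusted p at least 0.213), although both large intestine values were the highest. Without either small intestine profile, and so without the pair that set its spread, it was called lower in muscle than in large intestine. That difference was -1.23, against -1.27 with all profiles.

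Spinal cord and occipital lobe are both neural tissue, and the question was whether miRNAs of the HOX clusters separate them. miR-10a-5p gave 168408 reads in spinal cord and 2637 in occipital lobe, 70444 and 1146 RPTM, a ratio of 61.5 (exact 95% interval 59.1 to 63.9, counting error only). miR-10b-5p gave 907240 and 20585 reads, 379494 and 8946 RPTM, a ratio of 42.4 (41.8 to 43.0). With 1 profile of each tissue there is no replicate check. The log2 differences, 5.94 and 5.41, were several times the largest difference between 2 profiles of 1 tissue in the same miRNA (0.91 and 0.79).

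These 2 miRNAs ranked 3 and 4 of the 371 by their excess in spinal cord. Of the 371, 14.0% (52) were at least 4-fold higher in spinal cord by the log2 of RPTM + 1, 3 were at least 4-fold lower, and the median difference was 0.33. Of the 6 members, 4 were at least 4-fold higher: both 5p miRNAs of miR-10 and both of their 3p strands. miR-10b-3p gave 35 reads in spinal cord and 0 in occipital lobe, at least 11.2-fold higher against the floor of 3 reads in 1 library, with an exact 95% lower limit of 8.66. miR-10a-3p gave 9 and 0 reads, at least 2.89-fold higher against the same floor, with an exact 95% lower limit of 1.90, so its place above 4-fold depends on the added 1 RPTM.

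The miR-196 miRNAs did not separate the neural tissues at this depth. miR-196a-5p gave 9 reads in spinal cord and 5 in occipital lobe, a ratio of 1.73 (exact 95% interval 0.521 to 6.58), and miR-196b-5p gave 6 and 8, a ratio of 0.722 (0.206 to 2.37). Both intervals include 1. The other HOX cluster miRNA read here, mml-miR-615-3p, whose gene lies within HOXC5, held 26.8 RPTM in spinal cord and 2.17 RPTM in occipital lobe.

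**Figure D3:**
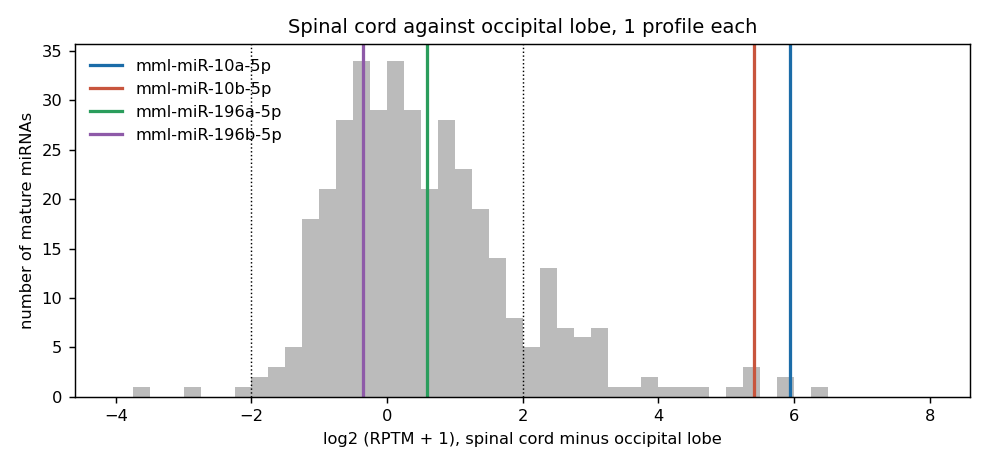
Distribution of the log2 difference of RPTM + 1 between spinal cord and occipital lobe over the 371 mature miRNAs, with 1 profile per tissue. Coloured lines mark the 4 5p members and dotted lines a 4-fold difference: miR-10a-5p (5.94) and miR-10b-5p (5.41) lie at the far right, and miR-196a-5p (0.59) and miR-196b-5p (-0.35) in the bulk.

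Several marker lists moved with this comparison. The 2 smooth muscle markers summed to 683988 RPTM in spinal cord and 103128 RPTM in occipital lobe, the 4 skeletal muscle markers to 735 and 96.9 RPTM, the endothelial marker miR-126 to 1136 and 493 RPTM, and the 2 oligodendrocyte markers to 25925 and 5095 RPTM. The skeletal muscle sum was carried by miR-133a (710 and 86.1 RPTM). miR-1 and miR-133b were also higher in spinal cord, and miR-206 was lower (0.418 and 1.30 RPTM). The 2 neuronal markers and the summed 4 epithelial markers (11.3 and 23.9 RPTM, with miR-200c at 0 in both) were lower in spinal cord. The 5 blood markers summed to 172310 and 277153 RPTM, a sum carried by miR-486 (171594 and 276764 RPTM), while the other 4 were higher in spinal cord (miR-451, for example, at 362 and 234 RPTM). The part of other cell types in the miR-10 difference was not tested. The occipital lobe levels of miR-10a-5p and miR-10b-5p were 0.239% and 0.241% of the highest profile of each. Of the 8 liver, small intestine and skeletal muscle markers, 6 stood in occipital lobe at a smaller share of their own highest level, from 0 for miR-802 and 0.0237% for miR-122a to 0.141% for miR-133b, and 2 at a larger share, miR-206 (0.95%, at 1.30 RPTM) and miR-194 (1.08%), and whether the few miR-10 reads there came from the neural tissue was not tested. In spinal cord miR-10a-5p stood at 14.7% and miR-10b-5p at 10.2% of its highest profile, and the liver, small intestine and skeletal muscle markers between 0.0229% and 0.491%. The smooth muscle (17.7% and 19.2%), endothelial (12.5%) and blood markers (5.33% to 26.1%) stood there at shares nearer those of miR-10. The epithelial markers stood at 0 to 0.158%. In occipital lobe the smooth muscle (2.89% and 3.88%), endothelial (5.45%) and blood markers (2.56% to 33.9%) stood at larger shares than miR-10. The epithelial markers stood there at 0 to 0.228%.

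The other strand of each hairpin was rare. For miR-10a the 3p strand gave 400 reads against 6742610 of the 5p strand over the 12 profiles, and its median share was 0.00562%, from 0 in occipital lobe (which allows up to 0.114% at 3 reads) to 0.00824% in the first small intestine profile. For miR-10b it gave 666 reads against 28529216, with a median share of 0.00204% and a highest share of 0.00506% in lung, where it rested on 4 reads. miR-196b had 10 reads of the 3p strand against 12862, and a median share of 0.0357% over the 7 profiles with at least 100 reads. miR-196a kept more of it: 178 reads against 23429, with a median share of 0.754% over 7 profiles, from 0.557% to 1.46%. In 6 of those 7 profiles its share was above the shares of the other 3 miRNAs, and in the second small intestine profile (1.08%) the 0 of 127 reads of miR-196b allow up to 2.36%, so no order was read there.

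The 3p reads told the 2 copies of miR-196a apart, and came from different copies in different tissues. The study's table lists for mml-mir-196a-1 the 3p sequence of mml-mir-196a-2, which the hairpin of mml-mir-196a-1 does not contain, so reads were placed on each hairpin by exact match. The most abundant 3p read of each copy is shown, with its bases 2 to 8 in capitals, because these reads carry the split.
mml-mir-196a-1 (26 reads): cAACAACAuuaaaccacccga
mml-mir-196a-2 (59 reads): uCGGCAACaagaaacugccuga
In kidney all 46 and 22 reads of a miR-196a 3p strand, and in muscle all 43 and 26, came from mml-mir-196a-2 in the HOXC cluster. In large intestine all 18 and 8, and in the second small intestine profile all 17, came from mml-mir-196a-1 in the HOXB cluster. The first small intestine profile held 1 such read, from mml-mir-196a-2, and the other 4 profiles none. No profile held reads of both, and with a Wilson interval of counting error the share of mml-mir-196a-1 was at most 14.9% in each kidney and muscle profile and at least 67.6% in the 3 intestinal profiles with more than 1 read. This grouping of profiles was seen in the data and was given no test. These few reads give the source of the 3p strand, and whether the copies keep that strand equally, or supply the 5p strand in the same proportion, was not tested.

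**Figure D4:**
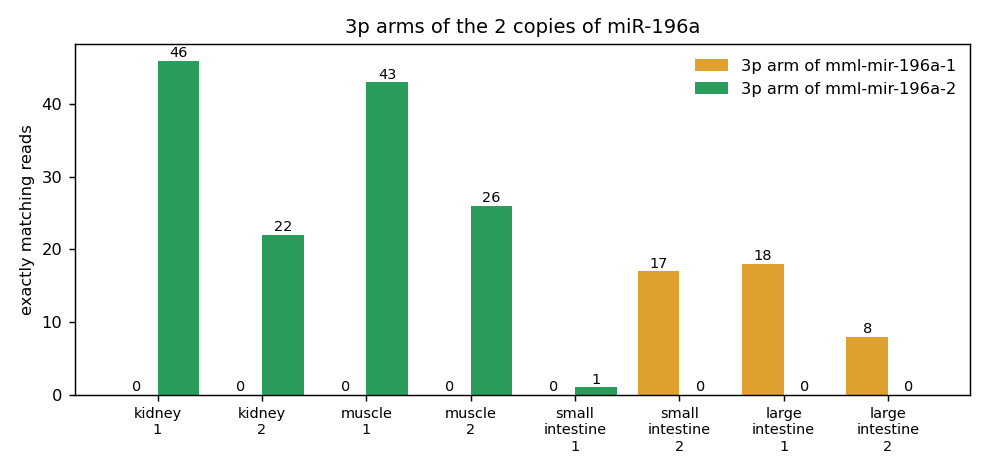
Exactly matching reads of the 3p strand of each miR-196a copy in the 8 profiles of tissues with 2 profiles, with the count above each bar. Kidney and muscle hold reads of mml-mir-196a-2 and none of mml-mir-196a-1, and large intestine and the second small intestine profile the reverse.

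The 5p strand of the 2 copies is the same up to base 22 and differs at base 23, C23A from mml-mir-196a-1 to mml-mir-196a-2.
23 bases of mml-mir-196a-1: uagguaguuucauguuguugggC
23 bases of mml-mir-196a-2: uagguaguuucauguuguugggA
Among reads that began at base 1 with A or C at base 23, C made up 3.82% to 10.2%, with no such split between tissues. These shares cover the 7 kidney, muscle, large intestine and small intestine profiles with more than 100 such reads. With starts at base 2 added, exact reads with C and with A numbered 218 and 836, and 176 and 466, in large intestine. They numbered 221 and 1246 in the second small intestine profile. In kidney they numbered 203 and 5097, and 298 and 3277, and in muscle 388 and 5375, and 269 and 3331. C was thus more frequent beside A in those intestinal profiles than in kidney or muscle. Of the reads that began at base 1, those with G (1289) and U (3926) at base 23, which neither hairpin encodes, stood beside those with C (1389) and A (20143). An A or C there can be such an unencoded base too, so base 23 does not assign a read to its copy, and how many of the A and C were unencoded was not tested.

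The start of the miR-196a-5p reads differed between the same sets of profiles. Reads that began at base 2, which moves the seed to GGUAGUU, made up 9.76% and 17.4% of all miR-196a-5p reads in large intestine and 8.18% in the second small intestine profile, against 0.539% to 0.832% in the kidney and muscle profiles. Among reads with C at base 23 that began at base 1 or 2, those that began at base 2 made up 55.5% and 83.0% in large intestine and 62.4% in the second small intestine profile. The same share was 0.258% to 1.01% in kidney and muscle. Among reads with A at base 23 it was at most 3.0% in all 7 profiles. The sequence below is the stretch of the mml-mir-196a-1 hairpin that begins at base 2. A C at base 23 does not assign such reads to that copy, so their source was not settled.
miR-196a-5p read of mml-mir-196a-1 that begins at base 2: aGGUAGUUucauguuguugggc

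A start at base 2 was common in miR-10, in which it moves the seed from ACCCUGU to CCCUGUA.
miR-10a-5p read that begins at base 2: aCCCUGUAgauccgaauuugug
miR-10b-5p read that begins at base 2: aCCCUGUAgaaccgaauuugug
For miR-10a-5p the median over profiles was 22.7% of reads, from 19.9% in spinal cord to 25.1% in the first large intestine profile, with at most 2.95 percentage points between profiles of a tissue. For miR-10b-5p it was 10.7%, from 9.65% to 11.5%. The share was higher for miR-10a-5p in 12 of 12 profiles, by 12.1 percentage points on average (exact sign-flip permutation test over profiles, two-sided, adjusted p = 0.000488 over 5 measures, the smallest that 12 profiles allow). The plan described read ends without a test. The 5 measures were picked from the starts, ends and tails counted here, and the adjustment covers only them. Others, such as the share of reads with any tail, were not tested. miR-196b-5p began at its annotated base in a median of 99.96% of reads.

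The 3' ends of the 2 miR-10 miRNAs also differed, though their encoded bases there are the same. miR-10a-5p ended at its annotated last base in a median of 30.9% of reads and 1 base short of it in 33.1%. miR-10b-5p ended at its annotated last base in 11.5% and 1 base short in 54.3%. In 12 of 12 profiles miR-10a-5p had the larger share at the annotated end (31.9 ± 6.1% against 12.1 ± 2.0%, mean ± SD) and miR-10b-5p the larger share 1 base short (52.9 ± 8.2% against 33.2 ± 6.4%), both with an adjusted p of 0.000488 in the same exact permutation test. The profiles share animals and tissues, so the 12 are not fully independent.

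Bases not encoded in the hairpin (tails of 1 or 2 bases) ended a median of 25.7% of miR-10a-5p and 25.99% of miR-10b-5p reads. Among 1-base tails, A was more frequent in miR-10a-5p than in miR-10b-5p (13.3% and 7.26%, medians) and C less frequent (10.1% and 16.04%), each in 12 of 12 profiles with the same adjusted p of 0.000488 (exact permutation). Across tissues, the tailed share ran from 18.7% in spinal cord to 37.9% in lung for miR-10a-5p and from 18.02% in spinal cord to 38.3% in the first large intestine profile for miR-10b-5p. The profiles of 1 tissue differed by up to 11.1 and 18.3 percentage points, so no order of tissues was read from the tails. The large intestine pair differed most: C tails ended 28.4% of miR-10b-5p reads in the first profile and 9.01% in the second. miR-196a-5p most often ended 2 bases beyond its annotated 21 (a median of 60.0% of reads), and carried a tail in 31.5%. miR-196b-5p carried a tail in 46.9%, most often U (19.4%).

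**Figure D5:**
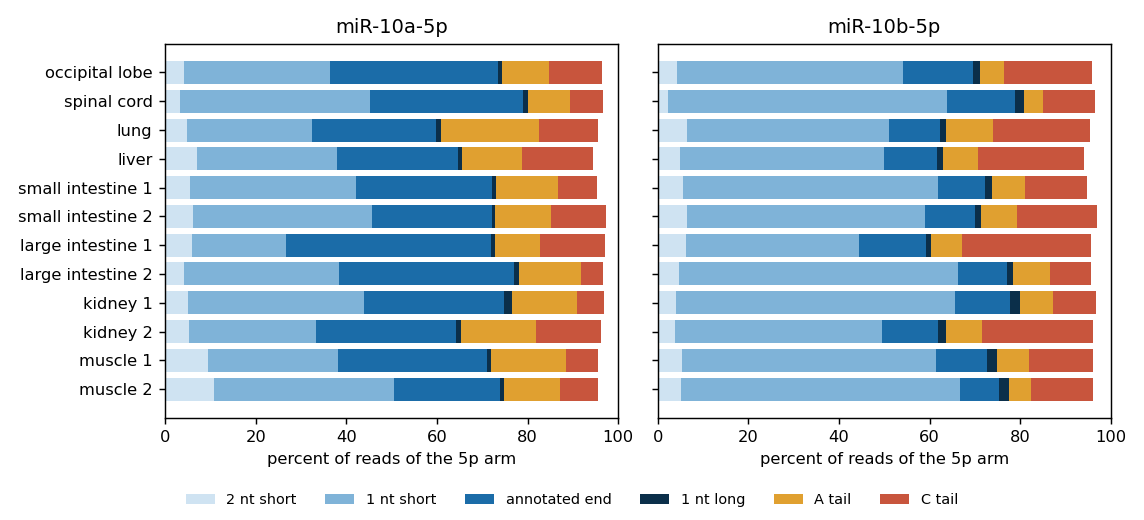
Where reads of miR-10a-5p (left) and miR-10b-5p (right) ended in each profile, in percent of reads of the 5p strand: templated ends from 2 bases short of to 1 base beyond the annotated end, and 1-base A or C tails. The 1-base-short class fills a median of 33.1% on the left and 54.3% on the right, and C tails differ between the 2 large intestine profiles.

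Single-base changes inside the 5p reads were rare. Base 12, at which a change lies 1 base from both miRNAs of a pair, was left out, and over the other positions among the first 20 bases no change reached more than 0.691% of reads in a profile with at least 1000 reads over the base (C11U in miR-196b-5p).

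By the rule fixed for likeness (Pearson's r of log2 RPTM + 1 over the 12 profiles of 8 tissues, a description that shares libraries and depth), the miRNAs outside the family most like miR-10a-5p were miR-221-3p (r = 0.88), miR-222-3p (0.87) and miR-221-5p (0.84). All had their lowest level in occipital lobe, as miR-10a-5p had. Most like miR-10b-5p was miR-615-3p (r = 0.74), the HOXC cluster miRNA, which held 62.6 RPTM in the first kidney profile and 0 in liver and lung, then miR-222-3p (0.72) and miR-508-3p (0.70). For miR-196a-5p and miR-196b-5p the closest was miR-222-3p (0.67 and 0.66). Some members were closer to each other: miR-196a-5p and miR-196b-5p at r = 0.91 and miR-10b-5p and miR-196a-5p at 0.88, against 0.57 between miR-10a-5p and miR-10b-5p, which share a seed. By ranks (Spearman's rho) these 3 pairs stood at 0.70, 0.87 and 0.42, so the order of the first 2 depended on the measure. In lung, liver and both neural tissues the miR-196 values rested on 2 to 39 reads.

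The relatives of miR-10 outside the HOX clusters, miR-99 and miR-100, and the miR-125 genes that lie with them, gave 10 mature sequences from mml-mir-99a, mml-mir-99b, mml-mir-100, mml-mir-125a and mml-mir-125b-1. None was called between the intestines or between kidney and small intestine, 1 was higher in kidney than in large intestine, 3 were higher in muscle than in either intestine, and 2 were higher and 1 lower in muscle than in kidney. Between the neural tissues 5 of the 10 were higher and 5 lower in spinal cord, with log2 differences from -0.85 to 1.85, so none reached 4-fold. miR-100-5p, for example, held 46069 RPTM in spinal cord and 20293 RPTM in occipital lobe, and miR-99b-5p 115653 and 155299 RPTM.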

How the data were processed

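The deposited files list each distinct small RNA sequence of a profile with its read counts. Per the study's methods, the authors kept Illumina reads whose first 25 bases scored at least 30 and removed adapters. Here sequences of at least 18 bases were matched exactly to the 832 hairpins, and a read was counted for a mature miRNA when both its ends lay within 2 bases of it, for each one where several qualified. RPTM is reads per 10000000 reads of the profile. Counts were tested with edgeR 4.0.16 (R 4.3.3; quasi-likelihood, TMM, 8 tissue groups, all 12 profiles). On counts simulated for kidney against small intestine, with 74 of 371 miRNAs changed 8-fold, 97.3% were called and 0 others. The simulated counts had the same spread for every miRNA and equal means in all tissues but kidney. They therefore do not measure power or error for the calls on the real data. DESeq2 1.42.0 and other scalings, filters and assignments were alternatives. Ends allowed tails of up to 2 bases. Named were the 8 member sequences, the 3 miRNAs most like each 5p member, and the listed relatives and markers. The members and lists were chosen with earlier results of these data known.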

Additional observations from a re-analysis of the deposited data

Results flagged for a closer look

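Reads appeared in stretches of the hairpins for which no mature miRNA is annotated. The 3p side of mml-mir-196a-1 held 43 reads, all in large intestine and the second small intestine profile, and these are the reads that separate the copies of miR-196a above. mml-mir-10a held 82 reads, in 7 profiles, that began more than 2 bases before its 5p strand, and mml-mir-196a-2 held 11 such reads in 4 profiles. These are totals over profiles, each above 3 reads, but the limit that a count of 0 allows is 3 reads in 1 profile, which the 11 reads do not exceed in every one of the 4.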

How the results depend on the processing

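Of the 294 member log2 differences recomputed under settings that kept all profiles or the 8 numbered ones, 263 kept direction and side of the threshold, 16 lost and 7 gained the call, and 8 turned, all of them uncalled. Those that turned were, for kidney against large intestine, miR-10a-3p with valid reads as library size (0.000584) and miR-10a-5p with valid reads (0.19), with the wider assignment (0.0194), under the replicate block (0.12) and on the 8 numbered profiles without it (0.12, a setting added after seeing the data). With valid reads, miR-196a-5p (0.18) and miR-196b-5p (0.16) turned for muscle against kidney, and with identical reads miR-10b-5p (-0.0128) turned for muscle against large intestine. Of 288 values without 1 profile, 5 turned. For kidney against large intestine these ranged from -0.64 to 0.0356 (miR-10a-3p) and from -0.32 to 0.14 (miR-10a-5p), for large against small intestine from -0.46 to 4.49 (miR-196a-5p), and for muscle against kidney from -0.52 to 0.10 (miR-196a-5p) and from -0.64 to 0.11 (miR-196b-5p).

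Counts of called miRNAs without 1 profile ran from 1 to 13 for large against small intestine, 61 to 111 for kidney against small intestine, 51 to 89 for kidney against large intestine, 105 to 156 for muscle against small intestine, 92 to 141 for muscle against large intestine and 90 to 129 for muscle against kidney. Without a filter, 21 were called between the intestines. With reads identical to the mature sequence, 5 were called between the intestines, 57 for kidney and 101 for muscle against small intestine, and 52 for kidney against large intestine. TMM against valid reads moved the split of higher and lower calls from 33 and 61 to 51 and 48 (kidney, small intestine), 39 and 41 to 47 and 29 (kidney, large intestine), 84 and 77 to 117 and 47 (muscle, small intestine), 79 and 64 to 115 and 39 (muscle, large intestine) and 73 and 64 to 92 and 49 (muscle, kidney), and the median log2 difference of kidney by 0.23 and 0.30. Replicate numbers did not pair the samples (mean correlation of deviations 0.03, over 0.1 in 1 of 6 pairs of tissues). With the replicate block 9, 103, 83, 157, 148 and 129 miRNAs were called in the 6 comparisons in the order above.

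The miR-10 differences between spinal cord and occipital lobe stayed between 4.93 and 5.99 under the 4 alternatives. With identical reads alone the median 3p share was 0 for miR-10a and miR-10b. Reads starting at the annotated base only put 9.28% of miR-10b-5p at the annotated end, and 1-base tails ended 44.5% of miR-196b-5p reads. miR-196 below about 20 RPTM rests on few reads, and the cause of these changes was not tested.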
